A study of Mus musculus with 10 samples.

Results

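The 29 genes described here encode the enzymes and regulators of sterol and fatty acid synthesis, and they were chosen by gene symbol. Of these, 28 were matched in the expression table of 23240 genes. The expression of Hmgcs1 was not analysed here, and it enters the promoter letters alone. Their RNA was followed by RNA-seq in progenitors sorted from mouse bone marrow, with 2 libraries in each of 5 groups and 10 in all. All mice carried the Tg(vav-Cre) transgene, and Runx1 was either intact (Runx1+/+, called wild type) or floxed (Runx1fl/fl, deleted to Runx1Δ/Δ, called Runx1-deleted). The Vav promoter that drives Cre is active in blood cells from their early stages on, so the deletion is not confined to the sorted stages. Runx1 encodes a transcription factor of blood cell development. All cells were lin- sca- kit+ CD41- CD105-. Granulocyte-monocyte progenitors (GMP) were CD16/32+ CD150-, megakaryocyte-erythroid progenitors (MEP) were CD150+ without CD16/32, and the population named XMP was CD16/32+ CD150+. GMP and MEP came from both genotypes, and XMP from Runx1-deleted mice alone. The labels give no age or sex, and they do not say whether 2 libraries of a group are 2 animals. A p-value therefore measures the spread among these libraries, which may be technical.

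Sterol synthesis starts from acetyl-CoA and runs through mevalonate and the isoprenoid farnesyl diphosphate to squalene, which is closed to lanosterol and trimmed to cholesterol. Fatty acid synthesis uses the same acetyl-CoA, supplied in the cytosol by ATP-citrate lyase, to build palmitate, which elongases and desaturases then modify. The membrane-bound factors SREBP1 and SREBP2, products of Srebf1 and Srebf2, switch on both pathways when sterols are low: Scap escorts them to the Golgi for cleavage, and Insig1 holds them back when sterols are plentiful. Dividing progenitors need both products for new membrane, and farnesyl and geranylgeranyl groups anchor small GTPases.

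Promoter letters are shown first, for the 3 members that differed between groups below and have a window in the RefSeq promoter table (Fads2, Pmvk and Elovl6), with Mvk added after its letters were seen because it held the most CCAAT boxes. Each is the 250 bases before a transcription start on build GRCm38.p6, and capitals mark CCAAT (the NF-Y box) and GGGCGG (the GC box bound by Sp1), read on both strands. Fads2 lies at chr19:10101504-10101753 on the minus strand, Pmvk at chr3:89454291-89454540, Elovl6 at chr3:129532136-129532385 and Mvk at chr5:114444019-114444268, these 3 on the plus strand. For Pmvk, the window with a CCAAT box is shown and not the second one.
Fads2: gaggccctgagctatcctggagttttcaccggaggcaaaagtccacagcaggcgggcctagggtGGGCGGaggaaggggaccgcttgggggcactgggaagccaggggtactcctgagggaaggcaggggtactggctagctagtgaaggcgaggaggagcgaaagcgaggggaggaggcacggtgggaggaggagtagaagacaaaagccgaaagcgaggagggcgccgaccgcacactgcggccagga
Pmvk: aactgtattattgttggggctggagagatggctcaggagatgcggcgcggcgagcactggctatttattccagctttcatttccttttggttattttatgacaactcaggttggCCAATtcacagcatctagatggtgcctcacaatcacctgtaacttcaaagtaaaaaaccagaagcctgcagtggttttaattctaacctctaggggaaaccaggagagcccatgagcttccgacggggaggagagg
Elovl6: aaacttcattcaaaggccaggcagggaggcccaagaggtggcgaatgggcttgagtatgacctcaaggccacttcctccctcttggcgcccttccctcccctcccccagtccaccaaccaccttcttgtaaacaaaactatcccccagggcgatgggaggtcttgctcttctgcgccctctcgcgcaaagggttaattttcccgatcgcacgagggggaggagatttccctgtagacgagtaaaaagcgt
Mvk: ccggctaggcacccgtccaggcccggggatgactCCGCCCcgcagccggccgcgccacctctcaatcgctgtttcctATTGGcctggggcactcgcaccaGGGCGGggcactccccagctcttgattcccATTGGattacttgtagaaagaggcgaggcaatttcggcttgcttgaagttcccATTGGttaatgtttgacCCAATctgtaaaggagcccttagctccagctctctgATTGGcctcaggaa
Mvk held 5 CCAAT boxes and 2 GC boxes, Pmvk 1 CCAAT box, Fads2 1 GC box and Elovl6 none of these letters.

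The table held 28 windows for 22 of the 29 members. Sqle, Fdps, Fads1, Stard4, Scd1, Fdft1 and Scd2 had none. CCAAT stood in 16 of these 22 members, against 33.9% of all 32851 windows of the same length, and GGGCGG in 18 of 22, against 32.7%. The letters TCACNCCAC of the sterol regulatory element stood in 1 member, Hmgcs1, and in 1.05% of all windows. CACGTG (the E-box) stood in 4 members (Dhcr7, Hsd17b7, Insig1 and Scap) and in 6.02% of windows. The RUNX core TGTGGT stood in Acaca, Acly and Lss, 3 of 22, and in 14% of windows. Members can have more than 1 window, so these shares of members and of windows are not on the same base. A match of letters is a description, and its absence says only that the letters are not in this window.

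Expression is in RPKM, a read density corrected for library size and gene length, as the authors computed it. Read totals worked back from these values were 20.8 M to 54.9 M per library, and the tested members drew 70 reads (Tm7sf2) to 17958 reads (Acly) in a library. Of the 28 members, 27 reached 1 RPKM in at least 2 libraries and entered the test. Markers followed the gates: 7 granulocyte-monocyte genes summed to 7665 RPKM or more in every GMP library and 51.9 RPKM or less in every MEP library, and XMP lay between, at 152 to 182 RPKM. Of 8 megakaryocyte and erythroid genes the sum was 832 to 1474 RPKM in MEP and XMP and at most 138 RPKM in GMP. Single genes of that list were split between Runx1-deleted MEP and XMP. Klf1 averaged 132.3 and 29.3 RPKM, Epor 13.2 and 6.15 RPKM, and Gfi1b 118.3 and 77.1 RPKM. Itga2b went the other way, at 210.6 and 667.3 RPKM, as did Gp9, at 47.2 and 123.8 RPKM, and Tal1, at 68.2 and 74.6 RPKM. Gata1 and Pf4 overlapped. Adipocyte markers, from a tissue rich in the same enzymes, did not reach 1 RPKM for any of 7 genes, and their sum was at most 0.712 RPKM. Of 6 hepatocyte markers only Apoa2 passed 1 RPKM, at 1.35 RPKM.

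Libraries differed in a way that bears on these genes. Wild-type MEP replicate 1 read long genes low: genes of at least 4616 bp lay 0.94 below genes of up to 1539 bp on the log2 scale, relative to the mean of all libraries, against 0.14 above in wild-type MEP replicate 2. The other 8 libraries lay between -0.38 and 0.51, with both wild-type GMP libraries (lanes 3 and 2) at -0.31 and -0.38 and both Runx1-deleted GMP libraries (lane 5) at 0.30 and 0.22. In GMP, genotype and sequencing lane cannot be told apart. The correlation of replicates across genes was 0.968 in wild-type MEP and 0.986 to 0.994 elsewhere. The kit of each library is not recorded. In sorted populations, fewer cells of a type and less RNA per cell cannot be told apart.

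All 4 branches were expressed in every gate. Averaged over the 10 libraries, Acly, the ATP-citrate lyase, had the highest level at 68.8 RPKM. It was followed by Scd2, a stearoyl-CoA desaturase, at 43.4 RPKM, and by Fdps, the farnesyl diphosphate synthase, at 42.8 RPKM. Srebf2 stood at 34.7 RPKM, Srebf1 at 23.9 RPKM and Fasn, the fatty acid synthase, at 23.0 RPKM. The lowest tested member was Hsd17b7, a reductase of the sterol ring steps, at 1.49 RPKM.

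The pair of desaturase paralogs was split. Scd1, the main liver and fat isoform, drew 0 to 31 reads per library and at most 0.141 RPKM. In XMP replicate 2 it had 0 reads, which allows up to 0.0142 RPKM at a floor of 3 reads, by counting error only. Scd2 lay between 18.3 and 65.5 RPKM in the same libraries. Scd3 and Scd4 stayed at or below 0.0868 and 0.158 RPKM, so Scd2 had by far the highest level of this family in each library.

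**Figure D1:**
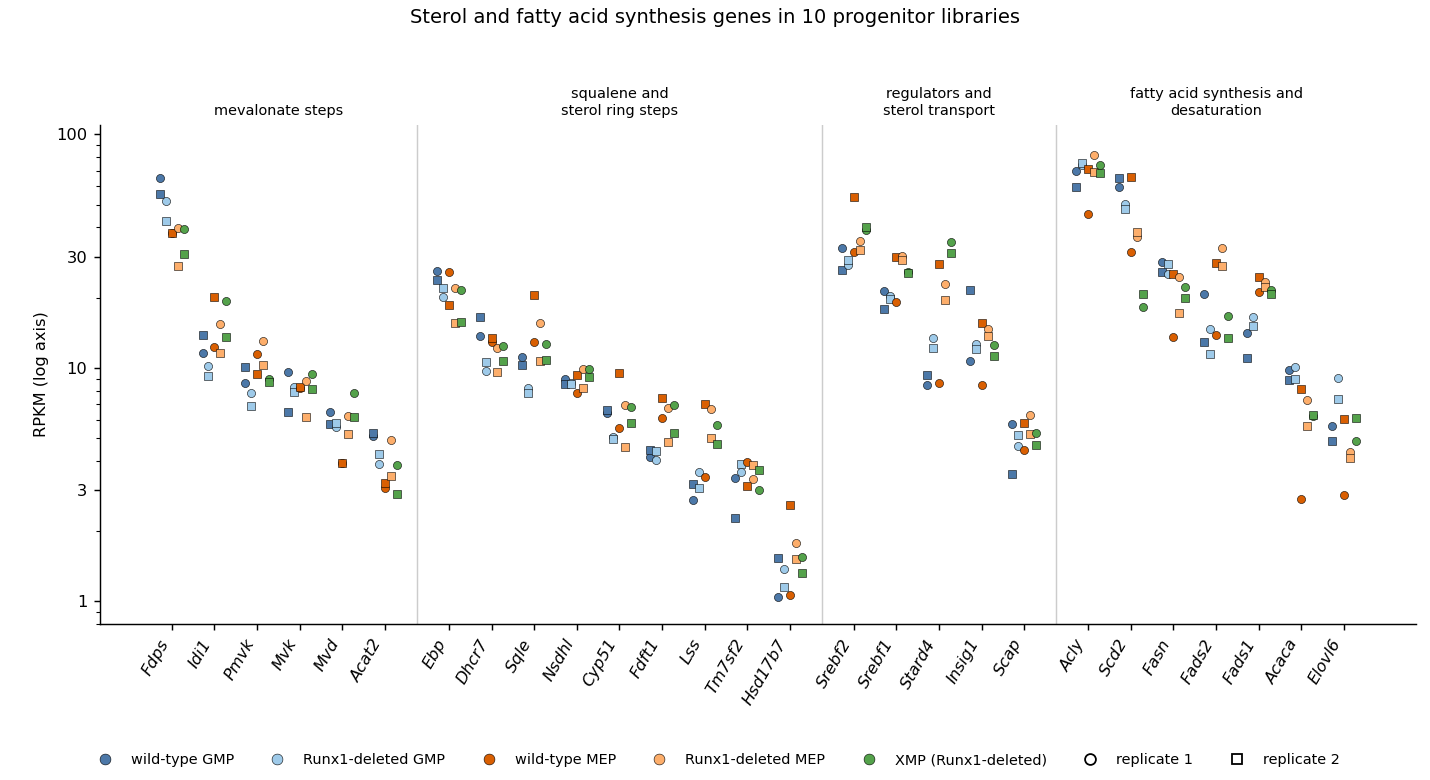
RPKM (log axis) of the 27 tested members in each of the 10 libraries, grouped by role and ordered by mean level; colour gives the group and shape the replicate. Most members stay within a narrow band over the libraries, while Stard4 runs from 8.43 to 34.7 RPKM and Scd2 from 18.3 to 65.5 RPKM.

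The members varied little between groups. The range of the 5 group means on the log2(RPKM + 1) scale had a median of 0.58 over the 27 members, beside 0.71 over all 10905 genes tested. It passed 1 for 3 members (Stard4 at 1.78, Scd2 at 1.63 and Fads2 at 1.15), which is 11.1%, against 30.6% of all genes tested. At the other end stood Nsdhl, a sterol dehydrogenase, with a range of 0.15, Mvk, the mevalonate kinase, with 0.22, and Hsd17b7 with 0.27. Scap, the escort of the SREBPs, had 0.28 and Acly 0.39. As a single value, the mean log2(RPKM + 1) of the 27 members was 3.61 and 3.54 in GMP with and without Runx1, 3.64 and 3.68 in MEP with and without it, and 3.63 in XMP. Single libraries ran from 3.39 to 3.88, both of these in wild-type MEP, and the SD pooled over groups was 0.183, above the range of the 5 group means of 0.14. That SD rests on the wild-type MEP pair: without it the SD was 0.11 and the other 4 group means ranged over 0.14.

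The first question was whether deletion of Runx1 altered these genes. In GMP, Dhcr7, the last reductase of cholesterol synthesis, read 13.8 and 16.6 RPKM in wild type and 9.67 and 10.6 RPKM after deletion. The groups did not overlap, and the log2 difference was -0.53 ± 0.18 (SE, n = 2 libraries per group), with a limma adjusted p of 0.125. Elovl6, the elongase that makes stearate, read 5.61 and 4.85 RPKM in wild type and 9.06 and 7.33 RPKM after deletion, with a log2 difference of 0.56 ± 0.26 and a limma adjusted p of 0.236. Its groups did not overlap either. Stard4, which carries cholesterol through the cytosol, read 8.43 and 9.32 RPKM against 13.4 and 12.1 RPKM, a log2 difference of 0.48 ± 0.38 with a limma adjusted p of 0.461.

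By limma, 0 of 27 members were called in GMP at an adjusted p under 0.05, where 5.22% of all genes tested were, and 1 member, Dhcr7, had an unadjusted p under 0.05. The authors' deposited table listed 0 of 28 members below an FDR p of 0.05 for this pair, and 0.925% of all its genes. The 95% intervals of 25 of the 27 log2 differences lay within -1 and 1 on the log2(RPKM + 1) scale. The exceptions were Stard4, up to 1.31, and Elovl6, up to 1.14. Groups did not overlap for 14 members, 5 higher and 9 lower after deletion, or 51.9%, and for 66.6% of all genes tested.

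By role, the log2 difference was negative for 5 of 6 tested mevalonate members (median -0.30) and 7 of 9 squalene and ring members (median -0.03). It was negative for 2 of 5 regulators and 3 of 7 fatty acid members. Among the mevalonate members Fdps had -0.35 ± 0.21, Idi1, which isomerises isopentenyl diphosphate, -0.35 ± 0.25, and Pmvk, the phosphomevalonate kinase, -0.31 ± 0.19, and none of them was called. Over all 27 members 17 were negative, with a median of -0.03 beside 0.05 for all genes tested. With the library medians set equal, the median of all genes in this comparison moved from 0.05 to -0.06, and 21 of 27 members were then negative, with a median of -0.14. Without either wild-type MEP library 1 member was called, Elovl6 in each case. These libraries enter the shared estimate of the spread, and calls over all genes tested moved with a library left out too.

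In MEP, Mvd, which decarboxylates mevalonate diphosphate, read 3.91 and 3.93 RPKM in wild type and 6.21 and 5.24 RPKM after deletion. The groups did not overlap, and the log2 difference was 0.45 ± 0.18, with a limma adjusted p of 0.185. Fads2, the delta-6 desaturase of polyunsaturated fatty acids, read 13.9 and 28.04 RPKM against 32.7 and 27.4 RPKM. Here the groups overlapped, and the difference was 0.57 ± 0.31 with a limma adjusted p of 0.310. Acly read 45.7 and 70.9 RPKM against 81.3 and 69.1 RPKM, also with overlap.

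By limma, 0 of 27 members were called in MEP, against 8% of all genes tested, and Mvd alone had an unadjusted p under 0.05. The authors' deposited table listed 0 of 28 below an FDR p of 0.05, and 0.775% of all its genes. Groups did not overlap for 3 members, 2 higher and 1 lower, or 11.1%, against 42.6% of all genes tested. The 95% intervals of 24 of 27 members lay within -1 and 1, with Stard4 and Fads2 reaching 1.25 and Acaca, the cytosolic acetyl-CoA carboxylase, 1.07. The median log2 difference was 0.02 (0.03 for all genes tested), and its sign did not hold: it was -0.04 with quantile normalization, -0.06 with equal medians, -0.03 with the length trend removed and -0.19 in lanes 4 and 5 alone. Without wild-type MEP replicate 1 it was -0.19, without replicate 2 it was 0.25, and without Runx1-deleted MEP replicate 1 it was -0.03. The count of members called moved with either wild-type MEP library left out. Calls over all genes tested moved as well, so this is not read as particular to the members.

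The pair of wild-type MEP libraries differed in 23 of 27 members in the same direction, higher in replicate 2. The median log2(RPKM + 1) over all genes tested was higher there too, at 3.61 against 3.30 in replicate 1. The direction is therefore not read as particular to the members. On RPKM + 1, 15 members were at least 1.5 times higher in replicate 2, against 20.4% of all genes tested. Those 15 had a median length of 4353 bp and the other members 1970 bp. Stard4 was 3.22 times higher in replicate 2, Acaca 2.95 times and Hsd17b7 2.42 times, while Ebp, the sterol isomerase, stood at 0.725 times. Among genes of at least 4000 bp, 9 of 10 members and 51.2% of all 3044 genes tested were at least 1.5 times higher. With the length trend of each library removed, 2 of 27 members were called between the MEP genotypes, Mvd and Srebf2. Of all 10905 genes tested, 1357 were called in that setting.

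**Figure D2:**
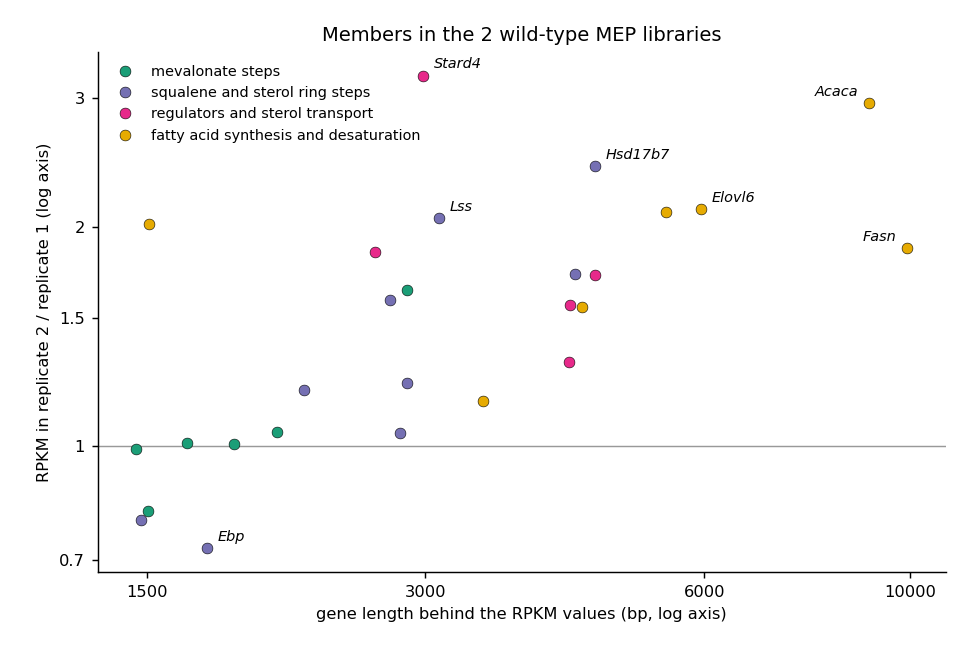
Ratio of RPKM in wild-type MEP replicate 2 to replicate 1 (log axis) against the gene length behind the RPKM values (bp, log axis), 1 point per tested member, coloured by role. Ebp lies lowest at 0.725 (1741 bp), Stard4 highest at 3.22, and all long members lie above 1, up to 2.95 for Acaca (9032 bp).

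A difference between the deletion effects of GMP and MEP was tested as an interaction. By limma, 0 of 27 members were called, against 1.74% of all genes tested, 0 had an unadjusted p under 0.05, and the smallest adjusted p was 0.522. Only 19 of the 27 intervals lay within -1 and 1. Fads2 had the widest gap, a log2 difference of -0.89 ± 0.44, with an interval from -1.85 to 0.08.

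The second question was how the gates differ. Fads1, the delta-5 desaturase that acts after Fads2, read 14.1 and 11.01 RPKM in wild-type GMP and 21.1 and 24.4 RPKM in wild-type MEP. All MEP values lay above all GMP values, with a log2 difference of -0.82 ± 0.17 for GMP minus MEP and a limma adjusted p of 0.00528. Fdps went the other way, with 65.01 and 55.8 RPKM in wild-type GMP and 38.0 and 37.7 RPKM in wild-type MEP, a log2 difference of 0.66 ± 0.21 and a limma adjusted p of 0.0480. These were the 2 members called of 27, or 7.41%, against 21.6% of all genes tested. Groups did not overlap for 10 members, 6 higher and 4 lower in GMP, and for 49.1% of all genes tested.

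Fads1 kept its call in 19 of 22 alternatives (adjusted p up to 0.0610) and Fdps in 9 of 22 (up to 0.342). The authors' deposited table gave FDR p-values of 0.252 for Fads1 and 0.0702 for Fdps. Acat2, the cytosolic thiolase that opens the mevalonate branch, read 5.09 and 5.27 RPKM in wild-type GMP and 3.06 and 3.20 RPKM in wild-type MEP, without a call at an adjusted p of 0.0577 by limma. Here too the count rests on the wild-type MEP libraries. Calls over all genes tested moved as well with a library left out, so this is not read as particular to the members. Without replicate 1, 8 members were called (Fdft1, Sqle, Lss, Hsd17b7, Srebf1, Srebf2, Stard4 and Fads1), and without replicate 2, 5 (Fasn, Acaca, Scd2, Elovl6 and Fads1). Without wild-type GMP replicate 2 none was called. It was Fads1 alone without wild-type GMP replicate 1, either Runx1-deleted GMP library or either XMP library.

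In the Runx1-deleted cells Fads2 read 14.7 and 11.4 RPKM in GMP and 32.7 and 27.4 RPKM in MEP. The MEP values were above all GMP values, and the log2 difference was -1.15 ± 0.31 with a limma adjusted p of 0.0183. Pmvk read 7.79 and 6.85 RPKM in GMP and 13.1 and 10.3 RPKM in MEP, a log2 difference of -0.60 ± 0.19 with a limma adjusted p of 0.0410. Elovl6 was higher in GMP, with 9.06 and 7.33 RPKM against 4.38 and 4.12 RPKM, a log2 difference of 0.80 ± 0.26 and a limma adjusted p of 0.0465. Fads1 read 16.6 and 15.1 RPKM in GMP and 23.3 and 22.2 RPKM in MEP, again without overlap, at an adjusted p of 0.0607 by limma.

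Of 27 members 3 were called, or 11.1%, against 24.5% of all genes tested. Fads2 was also below an FDR p of 0.05 in the authors' deposited table, at 0.0131. Groups did not overlap for 18 members, 5 higher and 13 lower in GMP, and for 67.7% of all genes tested. All 5 regulators were lower in GMP without overlap, and none of them was called. Srebf1 read 20.4 and 19.7 RPKM in Runx1-deleted GMP and 30.3 and 28.9 RPKM in Runx1-deleted MEP, a log2 difference of -0.54 ± 0.21 with a limma adjusted p of 0.0844. Sqle, the squalene epoxidase, and Lss, the lanosterol synthase, had -0.63 ± 0.24 and -0.65 ± 0.27.

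Fads2 kept its call in 20 of 23 alternatives, Pmvk in 13 and Elovl6 in 11. Without either wild-type MEP library 9 members were called (Pmvk, Sqle, Lss, Srebf1, Stard4, Acaca, Elovl6, Fads1 and Fads2). Without Runx1-deleted GMP replicate 2 none was called, and without Runx1-deleted MEP replicate 1 it was Fdps alone. Without Runx1-deleted GMP replicate 1, Runx1-deleted MEP replicate 2 or either XMP library it was Fads2 alone. With the replicate number as a block, 1 member was called, Fads2. Calls over all genes tested also moved with a library left out, so the moves of these counts are not read as particular to the members.

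**Figure D3:**
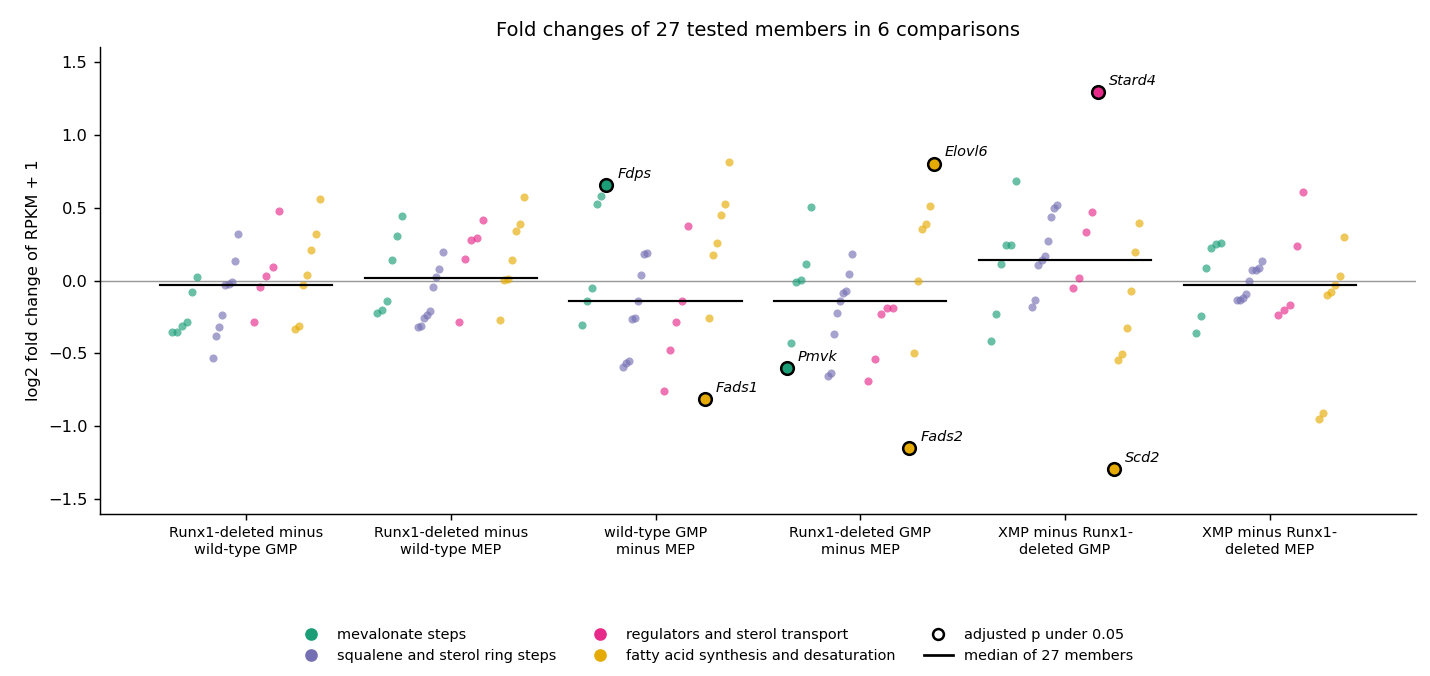
Log2 fold change of RPKM + 1 of the 27 tested members in 6 comparisons, 1 point per member, coloured by role; outlined and named points had a limma adjusted p under 0.05 and black lines are medians over the members. Medians lie between -0.14 and 0.14, no member is outlined in the genotype comparisons or in XMP minus Runx1-deleted MEP, and Scd2 and Stard4 lie farthest out, in XMP minus Runx1-deleted GMP.

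The third question was where XMP stands against the other Runx1-deleted gates. Scd2, which makes monounsaturated fatty acids from stearate and palmitate, read 18.3 and 20.7 RPKM in XMP. It read 50.4 and 48.2 RPKM in Runx1-deleted GMP and 36.5 and 38.4 RPKM in Runx1-deleted MEP. Both XMP values were below the other 8 libraries, of which the lowest was 31.3 RPKM, in wild-type MEP. Against Runx1-deleted GMP the log2 difference was -1.30 ± 0.27 with a limma adjusted p of 0.00502, and its call stood in 23 of 23 alternatives (adjusted p up to 0.0406). The authors' deposited table gave an FDR p of 8.87e-05 for the same pair.

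Against Runx1-deleted MEP the log2 difference of Scd2 was -0.91 ± 0.27, with a 95% interval of -1.51 to -0.31 and a limma adjusted p of 0.0696. It was called there in 10 of 23 alternatives, with adjusted p-values from 0.00247 to 0.294. Without wild-type MEP replicate 1 it was 0.00328, since the spread of these libraries enters the shared estimate. With the length trend removed the difference was -1.02, at an adjusted p of 0.00247. It was called in 10 of 23 alternatives, at adjusted p-values from 0.00247 to 0.294.

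Stard4 had the opposite order, with 34.7 and 30.9 RPKM in XMP, above all other libraries. It read 23.0 and 19.6 RPKM in Runx1-deleted MEP, 13.4 and 12.1 RPKM in Runx1-deleted GMP, 8.43 and 9.32 RPKM in wild-type GMP and, far apart, 8.64 and 27.8 RPKM in wild-type MEP. Against Runx1-deleted GMP the log2 difference was 1.30 ± 0.38, with a limma adjusted p of 0.0321, and the authors' deposited FDR p was 0.000609. The call stood in 16 of 23 alternatives and was lost without either XMP, Runx1-deleted GMP or wild-type GMP library (adjusted p up to 0.154) and with no filter on low values. Against Runx1-deleted MEP the difference was 0.61 ± 0.38, with an interval of -0.23 to 1.44 and a limma adjusted p of 0.445.

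**Figure D4:**
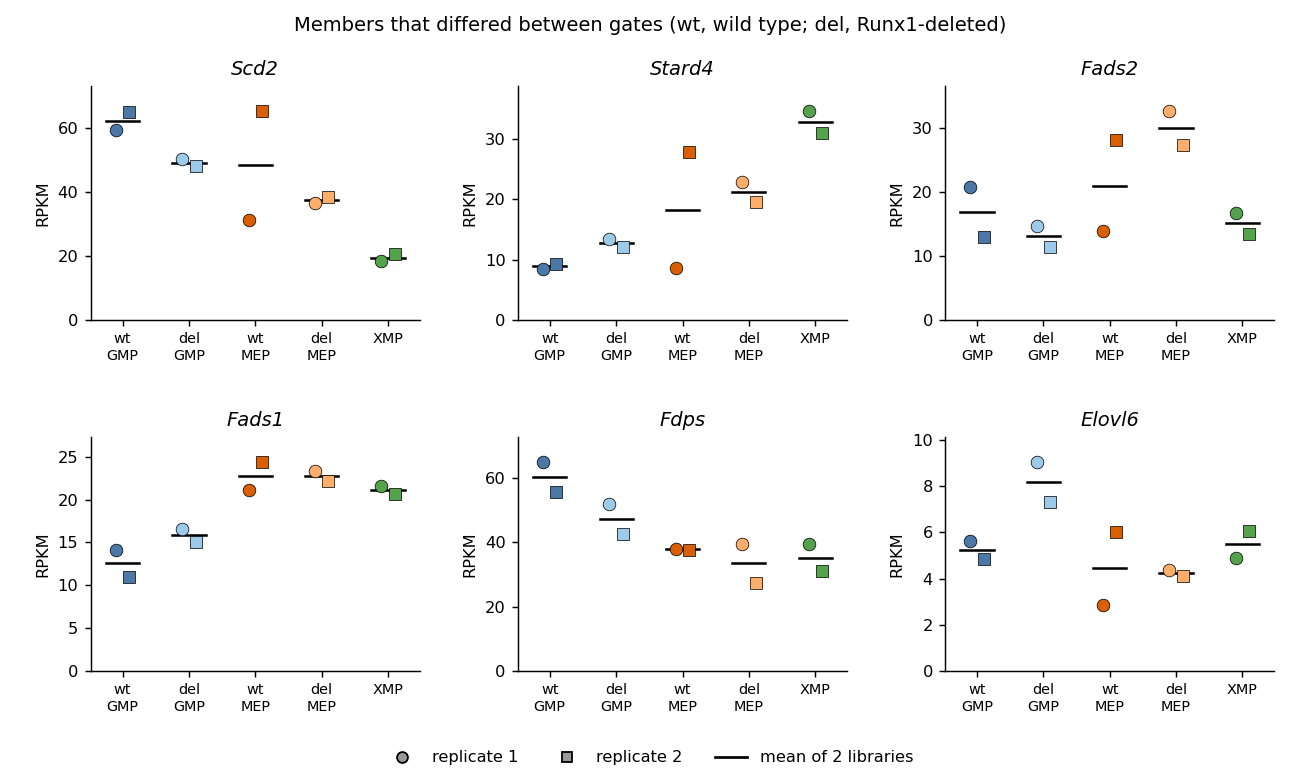
RPKM of 6 members in the 5 groups; points are single libraries, shaped by replicate, and lines are the means of 2 libraries. Scd2 is lowest and Stard4 highest in XMP, Fads2 is higher in Runx1-deleted MEP than in Runx1-deleted GMP or XMP, and the wild-type MEP libraries lie far apart for Scd2, Stard4, Fads2 and Elovl6.

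Scd2 and Stard4 were the 2 members called of 27 against Runx1-deleted GMP, or 7.41%, beside 19.7% of all genes tested. Over the members the median log2 difference was 0.14, and 0.05 over all genes tested. The differences were positive for 4 of 5 regulators and 7 of 9 squalene and ring members, and negative for 5 of 7 fatty acid members. Idi1 read 19.3 and 13.6 RPKM in XMP and 10.2 and 9.20 RPKM in Runx1-deleted GMP, a log2 difference of 0.69 ± 0.25 with a limma adjusted p of 0.0908. Srebf2 read 39.1 and 40.2 RPKM against 27.7 and 29.01 RPKM, at a limma adjusted p of 0.215. Groups did not overlap for 19 members, and for 66% of all genes tested. With a library left out, the calls of the members moved, and so did those over all genes tested. Without either wild-type MEP library 7 members were called (Idi1, Lss, Srebf2, Stard4, Acaca, Scd2 and Elovl6), and without any 1 of the XMP, Runx1-deleted GMP or wild-type GMP libraries Scd2 alone.

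Against Runx1-deleted MEP, 0 of 27 members were called by limma, beside 7.74% of all genes tested, and 2, Scd2 and Fads2, had an unadjusted p under 0.05. Fads2 read 16.7 and 13.5 RPKM in XMP against 32.7 and 27.4 RPKM, without overlap, a log2 difference of -0.95 ± 0.31 with a limma adjusted p of 0.0957. Groups did not overlap for 9 members, 3 higher and 6 lower in XMP, and for 53.8% of all genes tested. The intervals of 24 of 27 members lay within -1 and 1. The authors' deposited table listed 0 of 28 below an FDR p of 0.05, and 1.64% of all its genes, at 0.155 for Scd2 and 0.221 for Fads2. With a library left out, calls moved for the members and for all genes tested. Without either wild-type MEP library 3 members were called, Stard4, Scd2 and Fads2.

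Markers of the gates move with the XMP results. The granulocyte-monocyte sum was 7665 to 8020 RPKM in Runx1-deleted GMP and 152 to 182 RPKM in XMP, and the megakaryocyte and erythroid sum was 126 to 138 and 1217 to 1474 RPKM. Between Runx1-deleted MEP and XMP the megakaryocyte and erythroid list was split, as given above. The part of these markers in the differences of Scd2 and Stard4 was not tested. A sum of 8 proliferation genes overlapped, with 813 to 822 RPKM in Runx1-deleted GMP and 757 to 1020 RPKM in XMP. Single genes of that list did differ. Mki67 read 58.1 and 51.4 RPKM in Runx1-deleted GMP and 97.6 and 87.7 RPKM in XMP. Plk1 read 21.9 and 22.5 RPKM against 37.7 and 24.2 RPKM. Mcm5 was lower in XMP, at 112.1 and 84.3 RPKM against 114.7 and 122.1 RPKM. The remaining genes overlapped, and the part of this list was not tested either.

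The steps around the members were read from lists of related genes. The late sterol enzymes outside the list, 5 tested, gave no call by limma in any of the 7 comparisons. Of all genes tested, 1.74% to 24.5% were called in these comparisons. An unadjusted p under 0.05 was seen for 1 enzyme between the GMP genotypes and for 2 between XMP and Runx1-deleted GMP. In the other comparisons it was seen for 0. The isoprenoid branch, 14 tested, gave 1 call against Runx1-deleted MEP in each of 2 comparisons, or 7.14%. Of all genes tested, 24.5% were called for Runx1-deleted GMP against it and 7.74% for XMP. Both calls were Rabggtb, a subunit of the Rab geranylgeranyl transferase. It was highest in Runx1-deleted MEP, at 50.4 ± 3.12 RPKM (SD, n = 2), against 33 ± 0.0592 in Runx1-deleted GMP and 31.6 ± 1.13 in XMP, with log2 differences of -0.60 ± 0.15 and -0.66 ± 0.15. These calls stood in 20 and 16 of 23 alternatives (adjusted p up to 0.1001 and 0.163). Of 9 genes of SREBP processing and sterol sensing, Npc2, which hands cholesterol out of the lysosome, was higher in GMP. It averaged 93.9 ± 12.8 RPKM in wild-type GMP and 46.1 ± 9.93 RPKM in wild-type MEP (limma adjusted p of 0.00234), and 70.5 ± 7.09 against 28.3 ± 0.464 RPKM in the Runx1-deleted gates. Syvn1, a ubiquitin ligase of the endoplasmic reticulum, was higher in GMP than in MEP in wild type, by 0.72 ± 0.20 on the log2 scale, a call that stood in 18 of 22 alternatives.

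Of 16 tested genes of sterol storage, efflux and the LXR receptors, 6 were called between the wild-type gates (3 in each direction), or 37.5% against 21.6% of all genes tested. Between the Runx1-deleted gates 7 were called (5 higher and 2 lower in GMP), or 43.8% against 24.5%. The difference from all genes was not tested. The cholesterol acyltransferases, which store sterol as esters, were split by gate. Soat1 averaged 12.6 ± 2.39 RPKM in wild-type GMP and 1.29 ± 0.511 RPKM in wild-type MEP, and Soat2 1.73 ± 1.01 and 8.54 ± 1.6 RPKM, with log2 differences of 2.57 ± 0.20 and -1.85 ± 0.34 and limma adjusted p-values of 3.46e-06 and 0.00213. In XMP Soat1 was at 2.03 ± 0.141 RPKM and Soat2 at 12.98 ± 4.92 RPKM. Cyp27a1, the sterol 27-hydroxylase, was at 3.39 ± 0.274 RPKM in wild-type GMP and 0.678 ± 0.0132 RPKM in wild-type MEP.

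In each genotype comparison 1 gene of that list was called, or 6.25%. Of all genes tested, 5.22% were called in GMP and 8% in MEP. The gene was Rxra, the partner of the LXR receptors and of many other nuclear receptors. It read 1.78 and 1.65 RPKM in wild-type GMP and 6.08 and 7.22 RPKM after deletion, a log2 difference of 1.49 ± 0.20 with a limma adjusted p of 0.00128. In MEP it read 1.10 and 1.26 RPKM and 5.003 and 3.49 RPKM, a log2 difference of 1.25 ± 0.20 with a limma adjusted p of 0.00323. All 6 Runx1-deleted libraries lay above the 4 wild-type ones, with XMP at 6.76 and 5.24 RPKM. Other markers moved with genotype. The sum of 6 basophil and mast cell genes was 633 to 693 RPKM in wild-type GMP and 283 to 293 RPKM after deletion, and 236 to 243 and 109 to 137 RPKM in MEP. These genes did not move as a set. In GMP Mcpt8 and Prss34 averaged 199.9 and 231.5 RPKM in wild type and 8.90 and 0.369 RPKM after deletion. Cpa3 alone went the other way there, from 115.5 to 220.1 RPKM. In MEP most of the sum was Gata2, at 221.2 RPKM in wild type and 110.5 RPKM after deletion. The granulocyte-monocyte sum was at least 11600 RPKM in wild-type GMP and at most 8020 RPKM after deletion. That list was split as well. Mpo, Ctsg, Elane, Prtn3 and Cebpa were lower after deletion in GMP, without overlap. Csf1r was higher, at 34.26 and 22.71 RPKM in wild-type GMP and 37.54 and 50.22 RPKM after deletion. Csf3r was higher too, at 36.97 and 25.05 RPKM against 62.65 and 64.61 RPKM. The part of these markers in the difference of Rxra was not tested.

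Of 19 tested genes of fatty acid synthesis and elongation outside the list, 5 were called between the wild-type gates (26.3%, against 21.6% of all genes tested) and 6 between the Runx1-deleted ones (31.6% against 24.5%). Between XMP and Runx1-deleted GMP 6 were called (31.6% against 19.7%). None of these shares was tested against that of all genes. Acss2, which makes acetyl-CoA from acetate in the cytosol and nucleus, averaged 5.11 ± 0.568 RPKM in wild-type GMP and 21.4 ± 1.83 RPKM in wild-type MEP, a log2 difference of -1.88 ± 0.19 with a limma adjusted p of 2.90e-05. Acsl5, an acyl-CoA synthetase, averaged 57.1 ± 6.26 and 102 ± 9.31 RPKM in the same gates. Elovl5, an elongase of polyunsaturated chains, was higher in GMP, at 10.1 ± 0.603 against 3.07 ± 2.05 RPKM. Acss1, the mitochondrial acetyl-CoA synthetase, was the 1 gene called after deletion in MEP, or 5.26% beside 8% of all genes tested. It rose from 22.6 ± 3.39 to 42.5 ± 0.620 RPKM, by 0.89 ± 0.18 on the log2 scale, with a limma adjusted p of 0.0108. Its call stood in 18 of 23 alternatives (adjusted p up to 0.123) and was lost with group weights, with only the groups compared, in lanes 4 and 5 alone (0.0552), and without Runx1-deleted MEP replicate 1 (0.0566) or 2 (0.0789).

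**Figure D5:**
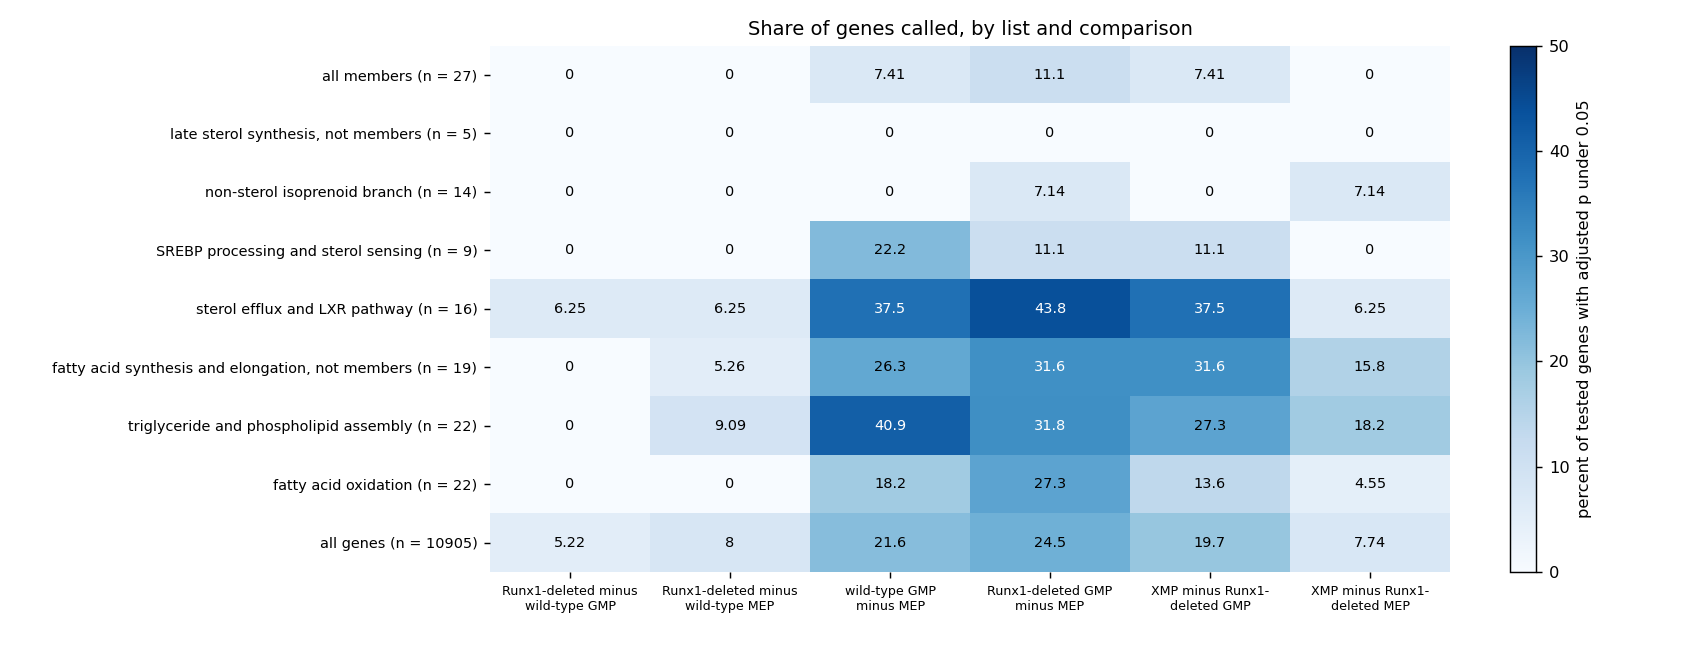
Percent of tested genes with a limma adjusted p under 0.05, for the members, 7 related lists and all genes tested (n in brackets) in 6 comparisons; darker blue is a higher share. The members reach at most 11.1%, the sterol efflux and LXR list 43.8% between the Runx1-deleted gates, and all genes 24.5% there.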

How the data were processed

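The deposited table gives RPKM for 23240 genes in 10 libraries, as computed by the authors, and per the file headers the FDR p-value of Baggerley's test for 6 pairs of groups. Reads were placed on mm9 per the submitters' processing notes, with an aligner and a counter not given in the sources used here. Per the labels' protocols, total RNA was used with a TruSeq or a NEBNext kit.

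From these values, log2(RPKM + 1) was modelled in limma 3.58.1 (R 4.3.3) for the 10905 genes that reached 1 RPKM in 2 or more libraries (eBayes with trend, 5 residual degrees of freedom) on all 10 libraries, 1 mean per group, and p-values were adjusted by Benjamini-Hochberg over all genes tested. Fold changes on this scale understate those of low genes. A gene was called at an adjusted p under 0.05. The plan's count test was not used because the unit is RPKM. Whole reads were recovered from the RPKM values, within 0.01 read, to give the totals, and 75.3% to 83.2% of them lay in genes. The test was run on simulated data with independent noise for each gene and library. These held no length or lane effect, so the check does not cover such effects in the real libraries. Groups came from the sample labels, and lanes from the column headers. Members, pathway lists and markers were chosen with earlier results of these data known. Full statistics are given for members called in at least 1 comparison, and values for others. Related genes were named among the 3 with the smallest p per list, direction and comparison. A few genes of these pathways are not reported here. Alternatives were another pseudocount, filter, normalization, trend, weights, length correction, lane set, block or left-out library. Promoters are from RefSeq on GRCm38.p6. They were matched by symbol, and no mm9 coordinates were used.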

Additional observations from a re-analysis of the deposited data

Results flagged for a closer look

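Plin3, which coats lipid droplets, had a different deletion effect in GMP and MEP by a test of the difference itself, at -1.08 ± 0.22 on the log2 scale for GMP minus MEP with a limma adjusted p of 0.0330. It read 22.7 and 25.95 RPKM in wild-type GMP and 24.9 and 26.2 RPKM in Runx1-deleted GMP. In wild-type MEP it read 10.2 and 10.7 RPKM and in Runx1-deleted MEP 23.8 and 24.9 RPKM. The difference was called in 10 of 22 alternatives, with adjusted p-values from 0.0162 to 0.202.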

How the results depend on the processing

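No single gene followed changed sign. The members' median did, in MEP (0.02, to -0.19 in lanes 4 and 5 alone), in the interaction (-0.07, to 0.17 with a library left out), between the wild-type gates (-0.14, to 0.14) and in XMP against Runx1-deleted MEP (-0.03, to 0.13). Counts of members called moved as follows. For Runx1-deleted against wild-type GMP (0) they were 1 with group weights and 1 with the length trend removed (Dhcr7 in both), and 0 to 1 with libraries left out. For MEP (0) they were 2 with the length trend removed (Mvd and Srebf2) and 2 in lanes 4 and 5 alone, and 0 to 6 with libraries left out. The interaction stayed at 0 in every alternative. Between the wild-type gates (2) there was 1 with no filter, 1 at a mean of at least 5 RPKM, 1 with no eBayes trend, 0 with only the groups compared, 0 with group weights, 4 with quantile normalization, 5 with equal medians, 7 with the length trend removed, 4 with the library-number block, and 0 to 8 with libraries left out. Between the Runx1-deleted gates (3) there were 0 with no filter, 8 with quantile normalization, 6 with equal medians, 9 with only the groups compared, 10 with group weights, 8 with the length trend removed, 10 in lanes 4 and 5, and 0 to 9 with libraries left out. For XMP against Runx1-deleted GMP (2) there was 1 with no filter, 9 with only the groups compared, 11 with group weights, 5 with the length trend removed, 7 in lanes 4 and 5, and 1 to 7 with libraries left out. Against Runx1-deleted MEP (0) there was 1 with quantile normalization, 2 with equal medians, 2 with only the groups compared, 2 with group weights, 1 with the length trend removed, 3 in lanes 4 and 5, and 0 to 3 with libraries left out. Causes were not tested.

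The labels' replicate numbers do not pair the libraries: deviations of same-numbered libraries correlated from -0.475 to 0.782. Ordered by the library numbers of the column headers, they correlated from -0.147 to 0.782. All pairs of groups without wild-type GMP then lay at 0.297 or above. A run effect shared by these libraries was not in the main model. The library-number block allows for 1 shift between lower and higher library numbers. Whether these numbers mark a run is not recorded. With that block, 708 of all genes tested were called in GMP and 1066 in MEP. With the replicate block, 1 member was called between the Runx1-deleted gates and 1 between XMP and Runx1-deleted MEP (Scd2, limma adjusted p of 0.0481, where same-numbered libraries correlated at 0.782), and other counts did not move by over 1.5 times. The library-number block and the crossed pairing of GMP numbers, chosen after seeing the data, also gave 1 in the latter. Over all genes tested, calls in GMP (569) ran from 233 to 1729 with libraries left out, and were 196 at a mean of at least 5 RPKM, 2023 with group weights and 1448 with the crossed pairing. In MEP (872) they ran from 361 to 3427, and were 412, 219 and 1345. Quantile normalization moved the share of called genes that were higher from 60.3% to 50% in GMP, and from 66.4% to 54.3% in XMP against Runx1-deleted MEP. Left out libraries leave a group with 1, assumed to vary like the others.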

Other observations

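Assembly of triglycerides and phospholipids had 9 of 22 tested genes called between the wild-type gates, 6 higher and 3 lower in GMP, a share of 40.9% against 21.6% of all genes tested. This difference in share was not tested. Dgat2, the last acyltransferase of triglyceride synthesis, averaged 4.45 ± 1.34 RPKM in wild-type GMP and 0.219 ± 0.0878 RPKM in wild-type MEP (SD, n = 2), a log2 difference of 2.14 ± 0.23 with a limma adjusted p of 3.51e-05. The phosphatidate phosphatases went the other way. Lpin2 averaged 6.47 ± 0.200 RPKM in wild-type GMP and 25.02 ± 7.92 RPKM in wild-type MEP, and Lpin1 2.58 ± 0.219 and 7.74 ± 1.96 RPKM. Between the MEP genotypes 2 of the 22 were called, or 9.09%, near the 8% of all genes tested. Between XMP and Runx1-deleted MEP 4 were called, all lower in XMP, or 18.2% beside 7.74%, which was not tested either. After deletion in MEP, Plin3 rose by 1.15 ± 0.16 on the log2 scale (limma adjusted p of 0.000971, called in 23 of 23 alternatives) and Lpin1 by 1.01 ± 0.24 (adjusted p of 0.0284, called in 13 of 23). In XMP Lpin1 was lower than in Runx1-deleted MEP, at 7.82 ± 1.63 against 16.7 ± 4.65 RPKM, as was Plin2, a lipid droplet coat, at 27.98 ± 5.79 against 56.4 ± 11.7 RPKM (limma adjusted p of 0.0308 and 0.0378). Lpin1 kept this call in 14 of 23 alternatives (adjusted p up to 0.240) and Plin2 in 15 (up to 0.261). Both calls were lost with no filter on low values and with only the groups compared (limma adjusted p of 0.0761 and 0.0658 in the latter). They were also lost without Runx1-deleted MEP replicate 2, and without any 1 of the XMP or Runx1-deleted GMP libraries.

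Of 22 tested genes of fatty acid oxidation, 4 were called between the wild-type gates (18.2%, against 21.6% of all genes tested) and 6 between the Runx1-deleted ones (27.3% against 24.5%), shares near those of all genes. Acadl, a long-chain acyl-CoA dehydrogenase, averaged 50.7 ± 1.82 RPKM in wild-type GMP and 89.1 ± 11.2 RPKM in wild-type MEP. Ehhadh, a peroxisomal enzyme of the pathway, averaged 1.21 ± 0.488 and 2.59 ± 0.625 RPKM, a call that stood in 16 of 21 alternatives. By limma, 0 of the 22 were called in either genotype comparison (5.22% and 8% of all genes tested), with an unadjusted p under 0.05 for 1 in GMP and 2 in MEP. Acaa2, a mitochondrial thiolase, was lower in XMP than in Runx1-deleted MEP, at 37.1 ± 5.23 against 74.5 ± 11.7 RPKM. Elovl7, an elongase of long saturated chains, was higher in XMP (3.37 ± 0.636 RPKM) than in both other Runx1-deleted gates (1.70 ± 0.201 RPKM in GMP and 1.6 ± 0.302 RPKM in MEP), with limma adjusted p-values of 0.0170 and 0.0273. These calls stood in 19 and 13 of 22 alternatives (adjusted p up to 0.165 and 0.226). The call against MEP was lost without any 1 of the Runx1-deleted libraries, and that against GMP without either Runx1-deleted GMP library or XMP replicate 1. That against MEP was also lost with a pseudocount of 0.1, with no filter on low values and with only the groups compared.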
